A study of Mus musculus with 6 samples.

Results

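Mitochondrial fatty acid oxidation was represented on the array by 6 genes, each with 1 probe: Cpt1b, Acadl, Acadm, Hadh, Ucp3 and Ppara. They were taken by their names in the platform's annotation, not by their signal, and all 6 were found among the 223 probes, of which 205 carried a gene name. The samples were soleus muscles of 6 mice labelled WT, of the 129/SV strain, in which hindlimb suspension for 7 days was followed by reloading for 1 day. The labels give neither age nor sex, and no unloaded or untreated muscle was analysed here, so the values describe reloaded muscle and its spread between mice and do not show an effect of reloading. The RNA came from sections of the muscle belly, so that all cell types of the muscle contributed. Mice are named by the number in their sample titles: 175, 176, 177, 178, 202 and 203.

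Long-chain fatty acids enter mitochondria as carnitine esters and are then shortened in repeated rounds of beta-oxidation. Carnitine palmitoyltransferase 1b (Cpt1b) is the muscle form of the enzyme that makes the esters at the outer membrane, and its reaction is regarded as the controlling step of entry. In the matrix an acyl-CoA dehydrogenase performs the first oxidation of each round. Acadl encodes the enzyme for long chains and Acadm that for medium chains. Hadh encodes the 3-hydroxyacyl-CoA dehydrogenase for medium and short chains, which performs the second oxidation. Ucp3 is a carrier of the inner membrane in skeletal muscle whose expression is known to follow fatty acid supply, and Ppara is the nuclear receptor that binds fatty acids and activates many genes of the pathway. The soleus is a postural muscle rich in oxidative fibres that depend on this pathway.

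Among the 6, by the deposited signal, Acadl and Acadm had the closest profiles over mice and Ucp3 had the widest spread over mice. The promoter windows of these genes are shown for that reason. The windows come from RefSeq (GRCm38.p6), run from 250 bases before to 50 bases after the annotated start, and are printed 5′ to 3′ on the strand of the gene. Capitals mark matches on either strand to AGGTCA, the half-site bound by nuclear receptors such as the product of Ppara, or to GGGCGG, the GC box.
Acadl, chr1:66863260-66863559, minus strand: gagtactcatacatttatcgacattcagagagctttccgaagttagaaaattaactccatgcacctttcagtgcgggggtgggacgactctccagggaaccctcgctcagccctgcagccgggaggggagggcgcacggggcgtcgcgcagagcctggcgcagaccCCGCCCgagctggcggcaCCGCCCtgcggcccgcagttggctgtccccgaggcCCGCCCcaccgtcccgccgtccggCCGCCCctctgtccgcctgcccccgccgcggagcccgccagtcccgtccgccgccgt
Acadm, chr3:153944594-153944893, minus strand: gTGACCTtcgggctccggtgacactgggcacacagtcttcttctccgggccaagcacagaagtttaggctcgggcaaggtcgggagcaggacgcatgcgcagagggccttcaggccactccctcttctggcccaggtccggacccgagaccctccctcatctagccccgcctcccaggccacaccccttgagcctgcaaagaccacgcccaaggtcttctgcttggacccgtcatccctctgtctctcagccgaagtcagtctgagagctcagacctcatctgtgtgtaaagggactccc
Ucp3, chr7:100472741-100473040, plus strand: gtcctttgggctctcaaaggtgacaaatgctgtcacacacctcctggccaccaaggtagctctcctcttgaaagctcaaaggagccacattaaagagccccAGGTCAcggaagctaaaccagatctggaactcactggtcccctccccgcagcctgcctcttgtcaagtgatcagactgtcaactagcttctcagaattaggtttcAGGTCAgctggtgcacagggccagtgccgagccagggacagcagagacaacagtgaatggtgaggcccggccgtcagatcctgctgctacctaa

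Windows were found for 5 of the 6 genes, all but Cpt1b. AGGTCA occurred in 2 of the 5, with 1 match in Acadm and 2 in Ucp3, and in 16.3% of all 32851 windows in the table. GGGCGG occurred in 3 of the 5, with 4 matches in Acadl, 4 in Hadh and 2 in Ppara, and in 35.7% of all windows. TCAAGGTCA, which contains the half-site, and the DR1 element, a direct repeat of the half-site with 1 base between, occurred in none of the 5, against 0.423% and 0.0396% of all windows. Acadl and Acadm thus shared none of the searched motifs within these windows. The matches describe these letters only.

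Signals are given in per mille of an array's summed signal over 221 probes, a scale read from the values. They were deposited in steps of 0.1 per mille. The lowest signals of an array lay close together, and the 10th percentile of all probes on an array is called its floor. It was 0.5 per mille in mouse 202, 0.6 in mice 175, 176 and 203, and 0.7 in mice 177 and 178. A gene was taken as clear of the floor in a mouse at 2 times the floor or more. Spots differ in labelling and hybridization, so the level of a gene is compared with the floor and between mice, and genes are not ranked by level. Each mouse has 1 array, and no value separates the mouse from its array.

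Acadl, Hadh and Ucp3 cleared the floor in all 6 mice, Cpt1b in 4, Acadm in 2 and Ppara in none. The share clear in all mice was thus 3 of 6 genes, against 25.6% of the 223 probes. At 1.5 times the floor, 5 of 6 genes were clear in all mice and Ppara in 3 mice, against 37.7% of all probes clear in all mice at that limit. As a check of the labelled tissue, all 7 measured muscle markers (of 10 listed), among them the slow myosin Myh7 and myoglobin, cleared the floor on every array.

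**Figure D1:**
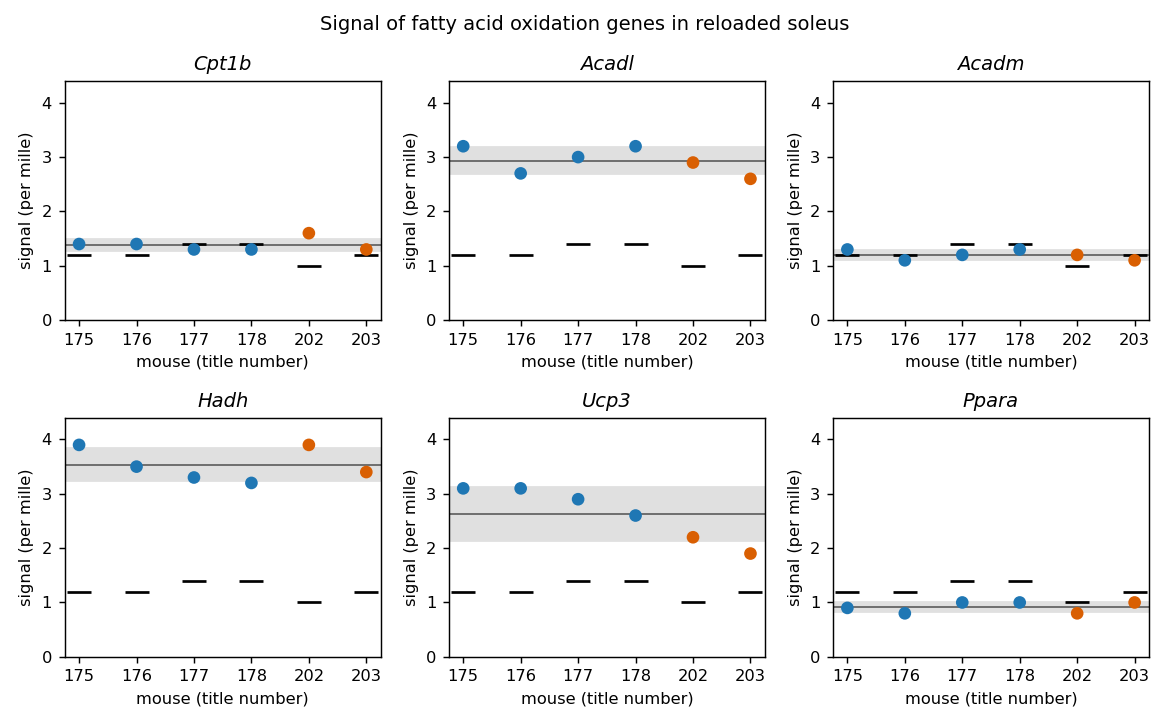
Signal of each gene (per mille, vertical axis) in each of the 6 mice (horizontal axis, title number), blue for mice 175 to 178 and orange for 202 and 203. The line and grey band give the mean and SD over 6 mice, and the black dashes mark 2 times the floor of that array. Acadl, Hadh and Ucp3 lie above the dashes in every mouse, Cpt1b and Acadm lie close to them, and Ppara lies below them throughout.

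Cpt1b, at the entry to the pathway, gave 1.4, 1.4, 1.3, 1.3, 1.6 and 1.3 per mille in mice 175, 176, 177, 178, 202 and 203. Mouse 202 was highest, and the other 5 lay within 1 step of each other. The mean was 1.38 ± 0.117 per mille (SD, n = 6), or 2.29 ± 0.494 times the floor. Relative to the floor the range was 1.86 times in mice 177 and 178 to 3.2 times in mouse 202, so the difference between mouse 202 and the others was larger on that scale, where its low floor enters.

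The 2 acyl-CoA dehydrogenases kept the same order of mice. Acadl gave 3.2, 2.7, 3.0, 3.2, 2.9 and 2.6 per mille in mice 175, 176, 177, 178, 202 and 203. Acadm gave 1.3, 1.1, 1.2, 1.3, 1.2 and 1.1 per mille in the same mice. Mice 175 and 178 were highest and mice 176 and 203 lowest for both enzymes. Acadl averaged 2.93 ± 0.250 per mille (SD, n = 6) and was 4.80 ± 0.618 times the floor. Acadm averaged 1.2 ± 0.0894 per mille (SD, n = 6) and was 1.97 ± 0.260 times the floor, above 2 times only in mice 175 and 202.

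Hadh, the second oxidation, gave 3.9, 3.5, 3.3, 3.2, 3.9 and 3.4 per mille in mice 175, 176, 177, 178, 202 and 203. Mice 175 and 202 were tied highest, and mouse 178, among the highest for Acadl and Acadm, was lowest. The mean was 3.53 ± 0.301 per mille (SD, n = 6), or 5.85 ± 1.20 times the floor, and no mouse was under 4.57 times.

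Ucp3, the inner membrane carrier, gave 3.1, 3.1, 2.9, 2.6, 2.2 and 1.9 per mille in mice 175, 176, 177, 178, 202 and 203. Its highest signal was 1.63 times its lowest, against 1.18 to 1.25 times for the other 5 genes. Mice 202 and 203 both lay below the other 4. The mean was 2.63 ± 0.497 per mille (SD, n = 6), or 4.29 ± 0.796 times the floor.

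Ppara, the receptor, gave 0.9, 0.8, 1.0, 1.0, 0.8 and 1.0 per mille in mice 175, 176, 177, 178, 202 and 203. Its values took 3 levels, 1 step apart, and stayed between 1.33 and 1.67 times the floor. The mean was 0.917 ± 0.0983 per mille (SD, n = 6). A signal this close to the floor shows neither expression nor its absence.

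Of the 50 other genes listed for the pathway and its regulation, the array measured 2, the receptor Pparg and Tfam, a factor that maintains mitochondrial DNA. Both lay near the floor. Pparg gave 0.717 ± 0.133 and Tfam 0.70 ± 0.0894 per mille (SD, n = 6), and neither was clear of the floor in any mouse. Steps before and after beta-oxidation were better represented. Of 7 measured genes of fatty acid uptake, binding and storage 5 were clear in all mice. Vldlr, a receptor for triglyceride-rich lipoproteins, gave 1.87 ± 0.197 per mille and Fabp3, the fatty acid binding protein of heart and oxidative muscle, 1.82 ± 0.354 per mille (SD, n = 6). All 7 measured genes of the citrate cycle and respiratory chain list were clear in all mice, as were 6 of 9 of the glucose use list. Over all 223 probes the share clear in all mice was 25.6%, and the difference of the lists from it was not tested.

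The spread between mice was narrow for 5 of the 6 genes on the deposited scale. The SD of log2 signal was 0.11 for Acadm, 0.12 for Cpt1b, 0.12 for Hadh, 0.12 for Acadl and 0.16 for Ppara, and it was 0.29 for Ucp3. Without mouse 202 the SD of Cpt1b was 0.06. The median of the 6 was 0.12, against 0.27 over the 223 probes and 0.29 over the 57 that cleared the floor throughout. Only 4 probes of the 223 had a smaller SD than Acadm, whereas 136 had a smaller SD than Ucp3. The same median was 0.11 in the citrate cycle and respiratory chain list, 0.22 in the glucose use list and 0.28 in the uptake list. The difference in spread between the lists was not tested.

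The narrow spread depended on the scale. With each array centred on its median the median SD of the 6 genes was 0.21 against 0.20 over all probes, and with quantile normalization it was 0.19 against 0.17. Cpt1b then had an SD of 0.25 and 0.23, and Ppara one of 0.07 and 0.08. After division by the floor, a scaling chosen after the values were seen, the median was 0.23 against 0.20 over all probes. Ucp3 was not the widest on that scale: its SD was 0.28, against 0.29 for Cpt1b and 0.29 for Hadh. Rounding also entered, as 1 step of 0.1 per mille was 8.33% of the mean of Acadm, whose SD was 7.45% of its mean. For Cpt1b the step was 7.23% and the SD 8.45% of the mean, and for Ppara they were 10.9% and 10.7%. For Acadl and Hadh the SD of 8.53% and 8.52% exceeded the step of 3.41% and 2.83%.

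**Figure D2:**
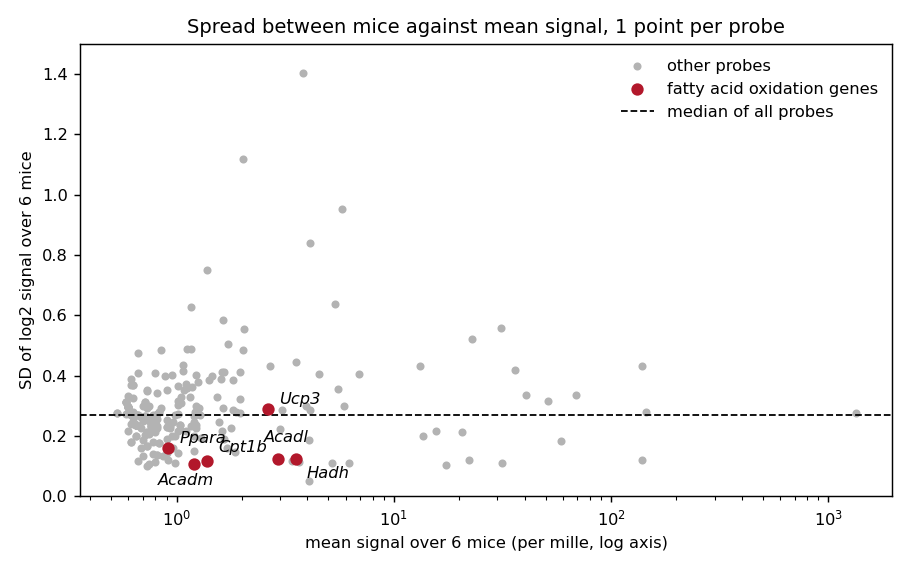
SD of log2 signal over 6 mice (vertical axis) against mean signal (horizontal log axis, per mille), with 1 point for each of the 223 probes and the fatty acid oxidation genes in red. The dashed line is the median SD of all probes, 0.27, and 5 of the 6 genes lie below it, with Ucp3 just above.

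Covariation along the pathway was measured by Pearson's r and Spearman's rho of log2 signal over the 6 mice, with exact two-sided permutation p-values over all 720 pairings. The same was computed for all 24753 pairs of probes, and Benjamini-Hochberg adjustment ran over all of them. No pair on the array passed an adjusted p of 0.05 by this exact permutation test, and the smallest was 0.254. With 6 mice the exact permutation p cannot fall under 0.00139. Adjustment over 24753 pairs thus left little room to pass, and the adjusted values cannot decide whether a pair covaries. Of the 15 pairs among the 6 genes, 2 with a positive r and 1 with a negative r had an unadjusted exact p at or under 0.05. Over all pairs of probes these shares were 14.3% for positive and 2.03% for negative r, and either sign together they came to 16.3%. Signals on an array share its scaling and its floor, and most probes are dim. The part of this in the r values was not tested. Over all pairs the median r was 0.37, and over the 15 pairs it was 0.07. Over the 1596 pairs of probes that cleared the floor throughout the median r was -0.01, with 7.27% at or under 0.05. The difference of the 3 in 15 from these shares was not tested. Each of the 3 pairs held a gene not clear in all mice, so the background of 7.27% does not match them. Among Acadl, Hadh and Ucp3, clear throughout, the exact permutation p was 0.889 (Acadl with Hadh), 0.306 (Acadl with Ucp3) and 0.95 (Hadh with Ucp3; n = 6).

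Acadl and Acadm, which act at the same step on different chain lengths, had the closest profiles. Their r was 0.98 (exact permutation p = 0.0111, adjusted p = 0.254, n = 6) and their rho 0.97 (exact permutation p = 0.0222, adjusted p = 0.366). Ties between mice kept p from falling under 0.0111 for this pair. The r was 0.99 after subtracting the mean of mice 175 to 178 and that of mice 202 and 203 from their members (exact permutation within these 2 runs of numbers, p = 0.0417), and 0.96 without mice 176 and 203, the farthest from the median of Acadl. Leaving out 1 mouse at a time gave r from 0.97 to 0.99, with an exact permutation p of 0.0667 without mouse 177 and 0.0333 without each of the others. With quantile normalization r fell to 0.61 (exact permutation p = 0.208, n = 6).

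The ratio of Acadl to Acadm signal on an array is unchanged by a factor common to the array. Quantile normalization is not such a factor, and its effect on the ratio was not computed. It was 2.46, 2.45, 2.5, 2.46, 2.42 and 2.36 in mice 175, 176, 177, 178, 202 and 203, with a mean of 2.44 ± 0.0470 (SD, n = 6). All 6 ratios lay within rounding of each other: any ratio from 2.36 to 2.52 could give the deposited values in every mouse. The SD of the log2 ratio was 0.03 (0.02 without mouse 203), against a median of 0.30 over all pairs of probes. A common ratio within rounding was possible for 11.1% of all pairs, and rounding is coarse for dim probes. Of the 3240 pairs with both means at or above that of Acadm it was possible for 2, or 0.0617%. These were this pair and Igf1 with Ldhc, and the limit was set by this pair's own dimmer gene. Among the 15 pairs of the 6 genes it was possible for this 1. Acadm was clear of the floor in only 2 mice, so in the other 4 the ratio is taken against a signal near the floor. The pair was singled out after its values were seen, and cross-hybridization between the probes of these related enzymes was not examined here. With 50% of the floor subtracted from each array, the SD of the log2 ratio was 0.06 and r was 0.92.

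Cpt1b and Hadh, the entry step and a later oxidation, formed the other positive pair. Their r was 0.82 (exact permutation p = 0.0333, adjusted p = 0.271, n = 6) and their rho 0.89 (exact permutation p = 0.05, adjusted p = 0.377). Ties between mice kept the p of r from falling under 0.0333 for this pair. With run means removed r was 0.80 (exact permutation p = 0.167), and without mice 177 and 202 it was 0.79. Leaving out 1 mouse gave r from 0.80 to 0.96, and the exact permutation p rose to 0.1 in 5 of the 6 cases, where only 5 mice and many ties remain. The Hadh to Cpt1b ratio was 2.56 ± 0.129 (SD, n = 6), from 2.44 in mouse 202 to 2.79 in mouse 175, and no single ratio could give all 6 pairs of values within rounding. Unlike the dehydrogenase pair, Cpt1b and Hadh had an r of 0.93 with quantile normalization (exact permutation p = 0.0222, n = 6).

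**Figure D3:**
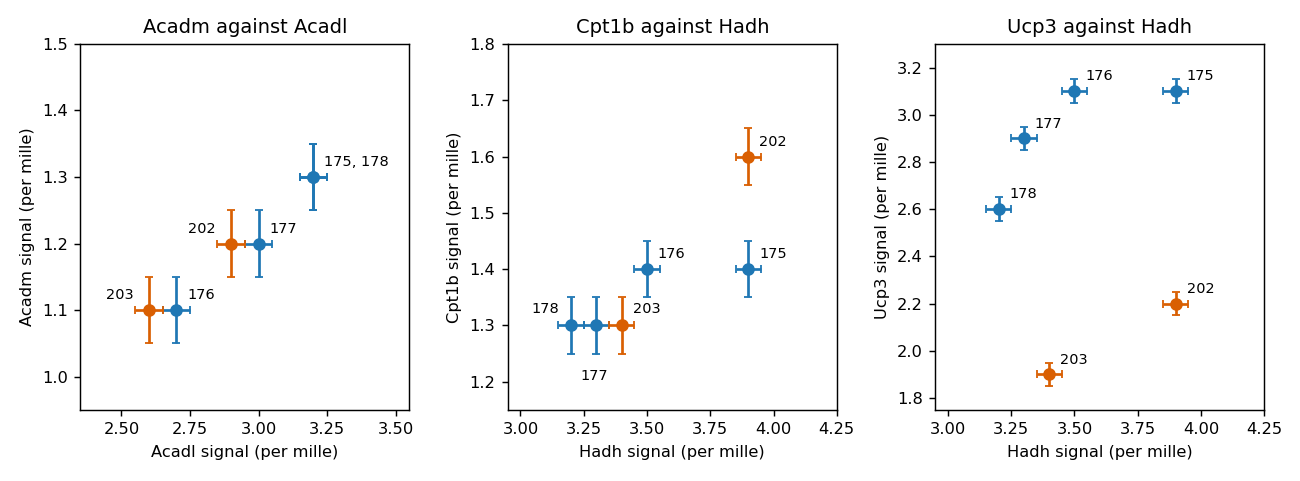
Signals of 3 pairs of genes (per mille on both axes), 1 point per mouse with its title number, blue for mice 175 to 178 and orange for 202 and 203. Bars span the rounding of the deposited values, 0.05 per mille to each side. Acadm rises with Acadl over all 6 mice, Cpt1b is highest in mouse 202 where Hadh is tied highest, and Ucp3 follows Hadh within mice 175 to 178 while mice 202 and 203 lie lower.

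On the deposited scale the r values between the 2 pairs lay near 0. The r of Cpt1b was -0.03 with Acadl and 0.01 with Acadm, and that of Hadh was 0.07 with Acadl and 0.13 with Acadm, with exact permutation p-values from 0.822 to 1 (n = 6). Leaving out 1 mouse moved these 4 values between -0.38 and 0.62. After dividing each array by its floor, a scaling chosen after the values were seen, these 4 values were 0.83, 0.87, 0.85 and 0.89, with exact permutation p-values from 0.025 to 0.0361 (n = 6). With arrays centred on their median they were 0.71, 0.77, 0.72 and 0.79, with quantile normalization 0.09, 0.73, 0.33 and 0.75, and with run means removed 0.28, 0.23, 0.31 and 0.30. The divisor is common to all genes of an array, and mouse 202, with the lowest floor, was then highest in Cpt1b, Acadl, Acadm and Hadh. Whether the 4 enzymes of the pathway vary together or as 2 pairs is therefore not settled by these data.

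Ppara ran opposite to Cpt1b on the deposited scale, with r at -0.85 (exact permutation p = 0.0333, adjusted p = 0.271, n = 6) and rho at -0.95 (exact permutation p = 0.0333, adjusted p = 0.366). Here too ties kept the p of r from falling under 0.0333. With run means removed r was -0.89 (exact permutation p = 0.167), and without mice 177 and 202 it was -0.89. The relation rested on the scale: r was -0.14 with arrays centred on their median, -0.20 with quantile normalization and 0.40 after division by the floor. Ppara had a positive r with 183 of the other 222 probes (median 0.63), whereas Cpt1b had one with 38 (median -0.70) and Hadh with 42 (median -0.56). For Acadl the count was 145 and for Acadm 141, with medians of 0.19 and 0.16. These counts and medians are for the deposited scale, on which Ppara moved with most of the array and Cpt1b and Hadh moved against it. They were not computed on the other scales. Ppara lay near the floor, and the part of the floor in these values was not tested.

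**Figure D4:**
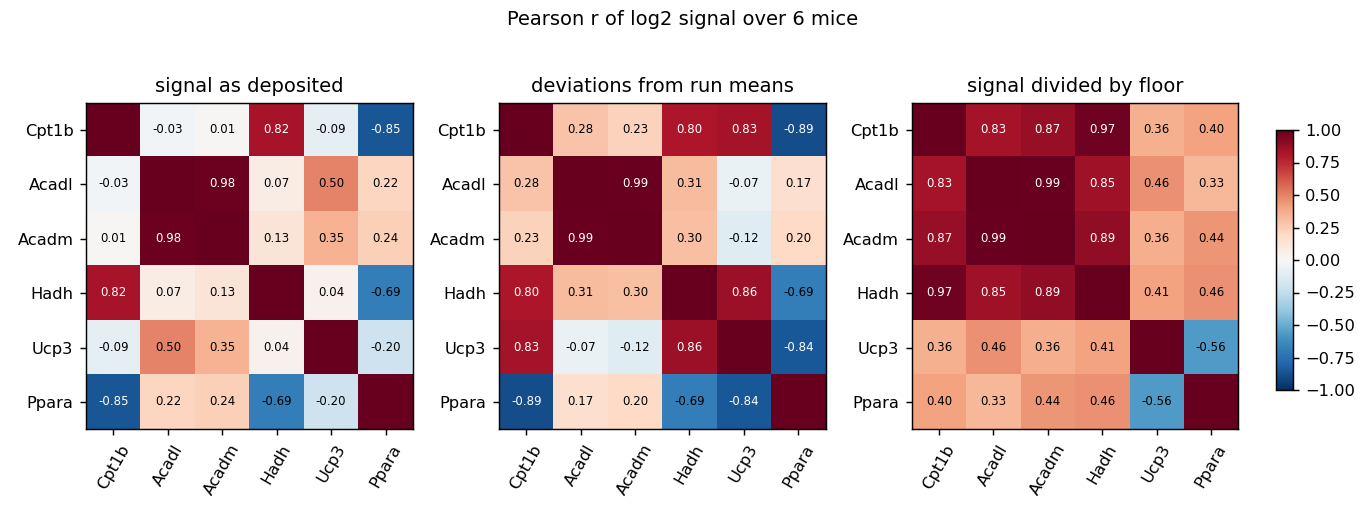
Pearson r of log2 signal over 6 mice for each pair of the 6 genes (rows and columns), colour from -1 (blue) to 1 (red), for the deposited signal, for deviations from the means of the runs of mouse numbers, and for the signal divided by the floor of its array. Acadl with Acadm (0.98, 0.99 and 0.99) and Cpt1b with Hadh (0.82, 0.80 and 0.97) are high in all 3 panels, while the values between these pairs and those of Ppara change with the scaling.

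By their title numbers the mice fall into 2 runs, 175 to 178 against 202 and 203. The labels do not explain the runs, which were compared as a possible batch. Of the 223 probes, 6.28% passed an adjusted p of 0.05 in limma, and 0 of the 6 genes did, while 1 of the 6, Ucp3, and 51 of the 223 probes had an unadjusted limma p under 0.05. Ucp3 averaged 2.92 per mille in mice 175 to 178 and 2.05 in mice 202 and 203, a log2 difference of -0.51 with a standard error of 0.19 (limma adjusted p = 0.108), where the median of all probes was -0.18. Both mice lay below all 4 others in Ucp3, as in 13.9% of all probes. Over the alternatives the limma adjusted p for Ucp3 ran from 0.0682 to 0.456 and the difference from -0.62 to -0.27. With a term for the run the SD of Ucp3 was 0.13, close to those of Cpt1b (0.12), Acadl (0.11), Acadm (0.11) and Hadh (0.13).

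Values of r for Ucp3 differed between the pooled mice and the runs. With run means removed r was 0.83 with Cpt1b (exact permutation within runs, p = 0.167) and 0.86 with Hadh (p = 0.125, exact permutation), against -0.09 and 0.04 over all mice (exact permutation p = 0.9 and 0.95, n = 6). Leaving out 1 mouse moved the pooled values between -0.60 and 0.65. With Ppara it was -0.84 within runs (exact permutation p = 0.125). With Acadl the r was 0.50 over all mice (exact permutation p = 0.306, n = 6) and -0.07 within runs. It ranged from -0.02 without mouse 203 to 0.87 without mouse 176. Permutation within runs allows 48 pairings, and none of these values of Ucp3 passed 0.05. With run means removed the median r over all pairs of probes was 0.48. How often values as far from 0 as these of Ucp3 occurred over all pairs was not counted. Between the runs the other 5 genes differed by -0.14 (Acadl) to 0.10 (Cpt1b) on the log2 scale, with limma adjusted p-values from 0.650 to 0.897.

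Markers of other cell types are given for the same runs. The summed signal of 3 measured fat cell markers was 6.5 to 8.2 per mille in mice 175 to 178 and 4.6 to 8.3 in mice 202 and 203, that of 5 endothelial markers 5.1 to 6.4 and 5.7 to 8.3, and that of 2 fibroblast markers 2.6 to 3.1 and 1.9 to 3.0. The 1 measured macrophage marker gave 0.6 to 0.7 and 0.5 to 0.6 per mille and never cleared the floor. The 7 muscle markers summed to 225 to 286 and 261 to 282 per mille. Only 1 of the 5 endothelial and 1 of the 2 fibroblast markers cleared the floor in all mice, so signal near the floor enters these sums. Of the fat cell markers Lipe and Pparg never cleared the floor and Fabp4 always did. Their part in the signal of Ucp3 was not tested, and fewer cells of a type and less RNA per cell cannot be told apart in whole muscle.

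By a rule of likeness, the probes that cleared the floor in every sample with the highest r to each gene over the 6 mice were Cox5b (0.83) and Hadh (0.82) for Cpt1b, Gapdh (0.88) and Fabp3 (0.73) for Acadl, Acadl (0.98) and Gapdh (0.80) for Acadm, Aldoa (0.81) and the ribosomal RNA probe Rn28s1 (0.75) for Hadh, Pgk1 (0.88) and Slc2a2 (0.80) for Ucp3, and Itgb1 (0.91) and Fgfr2 (0.85) for Ppara. With run means removed 11 of these 12 values stayed above 0.6, and that of Slc2a2 with Ucp3 fell to 0.28. These are the highest of 54 or 55 candidates each and describe these arrays only. The pathway itself supplied the nearest probe for Acadm (Acadl) and the next nearest for Cpt1b (Hadh). Acadm and Cpt1b, not clear in all mice, were not candidates for Acadl and Hadh. Their r with these, 0.98 and 0.82, was above that of the probes named for Acadl and Hadh.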

How the data were processed

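Per the labels' protocols, column-purified total RNA of soleus cryosections was reverse transcribed with gene-specific primers and labelled with a radioactive nucleotide for a low-density array. The authors deposited 1 table of linear signal for 223 probes and 6 samples; no source used here states the scanner, the background treatment or the normalization. Without the probes 1M and 1O each array summed to between 0.999 and 1.00, so the signal was multiplied by 1000 and given as per mille. None of the values was at or below 0, and 1 lay off the 0.1 per mille step (tolerance 1e-06 of a step). Gene names came from the platform annotation, matched by gene number to RefSeq for all 6 genes.

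Signals were used on the log2 scale without a pseudocount. The sources call the samples biological replicas. Runs of title numbers were compared with limma 3.58.1 (R 4.3.3; lmFit, eBayes) and Benjamini-Hochberg adjustment over all probes. Correlations used exact permutation in Python 3.11.15 with numpy 2.4.6. Both were tested on simulated data. The alternatives were median centring, quantile normalization, a pseudocount of 0.5 per mille, subtraction of 50% of the floor, leaving out the dimmest 25% of probes or each mouse, a run term, Spearman's rho, and other floors and multiples of the floor. Division by the floor, the lowest signal within rounding, and leaving out mice 202 and 203 were added after the data were seen. Named were the 6 genes, the listed pathway genes and the 2 nearest probes by r; Vldlr, Fabp3, Myh7, Fabp4 and Lipe were picked with their values in view. The genes and lists were chosen with earlier results of these data known.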

Additional observations from a re-analysis of the deposited data

Results flagged for a closer look

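Of 27 sets of 6 values examined (the signal of each gene, its ratio to the floor and the log2 ratios of the 15 pairs), 2 had a mouse whose gap to its nearest neighbour exceeded the critical share of the range in Dixon's test for 6 values. About 1.35 would be exceeded by chance in separate sets, and these sets share the same arrays. Both belong to Cpt1b in mouse 202: the gap was 0.667 of the range for the signal, where it amounts to 2 steps of 0.1 per mille, and 0.645 for the ratio to the floor. Mouse 202 had the lowest floor, 0.5 per mille, and its part in the Cpt1b value was not tested.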

How the results depend on the processing

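The number of the 6 genes clear of the floor in all mice was 3 in every alternative except at 1.5 times the floor, where it was 5. The number of gene pairs with an unadjusted exact permutation p at or under 0.05 was 3 as deposited (16.3% of all pairs of probes), 6 with arrays divided by their floor (8.78%), 1 with quantile normalization (9.20%), 1 with run means removed, and 0 to 2 when each mouse was left out; it was 0 without mouse 177 and 1 without each of mice 178, 202 and 203. With 5 mice only 120 pairings exist, so fewer pairs can pass. After division by the floor the r of Cpt1b with Acadl turned from -0.03 to 0.83 and that of Cpt1b with Ppara from -0.85 to 0.40; the common divisor enters both genes by construction. In limma 0 of the 6 genes passed between the runs under every alternative run, while the count over all probes ran from 0 without mouse 202 to 22 with division by the floor. The median SD of the 6 genes lay between 0.10 and 0.23, and the median SD of the log2 ratios of their pairs between 0.14 and 0.23. Quantile normalization was not applied to these ratios. No paired analysis was possible because the samples form 1 group. The number of arrays and the step of 0.1 per mille limit the precision of Cpt1b, Acadm and Ppara.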
